A study of Mus musculus with 67 samples.

Results

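Histone genes were followed across every way in which microglial RNA was obtained in this mouse brain study. They were taken by symbol, as all genes whose name begins with Hist1h, Hist2h, Hist3h, Hist4h, H2af, H3f3 or H1f, and 85 of the 24684 gene symbols in the deposited count tables matched. A gene was kept when at least 1 library held 10 or more of its reads, which left 28 genes. Of these, 18 lie in the histone gene clusters (Hist1h to Hist4h, called cluster genes here) and 10 are replacement genes (H1f0, H1fx, H2afj, H2afv, H2afx, H2afy, H2afy2, H2afz, H3f3a and H3f3b). The LPS experiment kept 25 of them, the digest experiment 26 and the driver experiment 20, and 19 were kept in all 3. No cluster H3 gene was kept in any experiment. The genes just inside the limit were Hist2h2ac and Hist1h2ad with 10 reads in their best library, and the genes just outside were Hist1h3a, Hist1h2ac and Hist3h2a with 9 reads in the LPS experiment and Hist1h2ac, Hist1h2bg and Hist1h4i with 8 in the digest experiment. In the driver experiment the lowest gene kept was Hist1h1e with 18 reads and the highest left out was Hist1h2al with 7.

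Histones package DNA: pairs of H2A, H2B, H3 and H4 form the nucleosome core and H1 binds the linker. The cluster genes supply most histone protein during S phase, and their main mRNAs end in a stem-loop in place of a poly(A) tail, bound by the protein Slbp. Replacement genes give polyadenylated mRNAs outside S phase too, and their products (H3.3, H2A.Z, H2A.X, macroH2A, H1.0) are laid down in cells that no longer divide. Some cluster genes also give polyadenylated mRNAs in resting or differentiating cells. How RNA was selected for the libraries was not given in the sources used here, so the counts are not read as levels of either RNA form.

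The series held 67 RNA-seq libraries of C57BL/6J mouse brain in 3 experiments and 21 groups. The mice carried an HA-tagged ribosomal protein allele (RLP22HA/HA) that is switched on by Cre from the Cx3cr1 locus, which is active in microglia and in other macrophages, and tagged ribosomes were pulled down with an antibody to HA. Microglia were also sorted as GR1 negative, CD45 intermediate and CD11b positive cells, and in one preparation the sorted cells were then used for the pull-down. A pull-down with control IgG and, in the driver experiment, the total extract (input) served as controls.

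In the LPS experiment all mice were CX3CR1CreER/WT RLP22HA/HA and had received 4 gavages of 5 mg tamoxifen between 4 and 6 weeks of age. They were injected with PBS (3 libraries per preparation) or with LPS, the endotoxin lipopolysaccharide, at 2.5 mg/kg for 3 h (4 libraries per preparation). Their 4 preparations were pull-down, IgG, sorted cells and sorted-cell pull-down. The digest experiment used mice of the same genotype and tamoxifen course, with 3 pull-down, 4 IgG and 4 sorted libraries after 20 min of Collagenase D with DNase, and 4 sorted libraries without digestion. The driver experiment compared the inducible driver (CX3CR1CreER/WT RLP22HA/HA), with tamoxifen in 3 libraries per preparation and without it in 2, and the constitutive driver (CX3CR1Cre/WT RLP22HA/HA), in 3 per preparation without tamoxifen. The labels describe libraries of a group as separate mice, and a sort and a pull-down could come from the same animal.

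Libraries held between 166851 and 3513317 counted reads, and the shallowest were among the sorted-cell pull-downs and the pull-downs without tamoxifen. None of the 78 pairs of libraries within groups was identical. In the LPS and digest experiments 19 microglial markers summed to between 53209 and 138528 CPM (reads of a gene relative to the library's total) in the pull-down and sorted preparations and between 1057 and 2959.5 in IgG. A list of 14 neuronal markers, which do not belong to microglia, summed to between 1423 and 1593 CPM in the pull-downs of the digest experiment, 8411 to 11698 in its IgG libraries and 7.63 to 21.1 in its sorted cells. Markers of border macrophages summed to between 1189 and 1289.7 CPM in the same pull-downs and to between 266 and 349 in the sorted cells. Pull-down and sorted libraries therefore differed in these other cell types as well as in RNA source, and the part of either in the histone differences was not tested. In such bulk libraries fewer cells of a type and less RNA per cell cannot be told apart.

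Values below are TMM-scaled CPM, and levels are compared between samples only, never between genes. Differences are log2 fold changes with their standard error from edgeR's quasi-likelihood test, and a gene was called at a Benjamini-Hochberg adjusted p under 0.05 over all genes of the experiment.

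Most tested cluster genes were higher and most replacement genes were lower in sorted cells than in the pull-down. In the digest experiment 14 cluster genes passed the filter on low counts, and after collagenase 11 of them were higher and 1 lower than in the pull-down, while of 10 replacement genes 1 was higher and 7 were lower. In that comparison 72.8% of all genes were called, 31.6% higher and 41.1% lower. Without digestion 9 cluster genes were higher and 2 lower, and 1 replacement gene was higher and 8 were lower, where again 72.8% of all genes were called, 31.9% higher and 40.9% lower. Both comparisons share the pull-down libraries. In PBS mice of the LPS experiment 7 of 10 cluster genes were higher and 1 was lower, and 1 of 10 replacement genes was higher and 7 were lower, against 71.9% of all genes called, 33.2% higher and 38.7% lower. The median log2 fold change of the cluster genes was 2.25 after collagenase, 2.19 without digestion and 1.11 in PBS mice, and that of the replacement genes was -1.45, -1.22 and -1.41, beside -0.18, -0.15 and -0.15 over all genes. With Hist1h1d, which had no read in the pull-down, set at its lower bound, the cluster median without digestion was 1.95. The cluster counts and medians hold near-identical copies (Hist1h2ao with Hist1h2ap, and Hist2h2aa1 with Hist2h2aa2, described below) as separate genes. Several cluster genes passed the filter through the sorted libraries alone, so these counts and medians describe the genes that passed and lend no support beyond the genes' own values.

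The summed CPM of the cluster genes lay between 240 and 260 in the 3 pull-downs of the digest experiment, between 173 and 261 in IgG, between 411 and 533 after collagenase and between 258 and 415 without digestion. The pull-down and collagenase ranges did not overlap, and the undigested range reached down to the pull-down. Much of this sum came from a single gene, Hist1h2bc. Without it the cluster sum was 65.7 to 71.3 CPM in the pull-down, 252 to 325 after collagenase and 134 to 252 without digestion. Replacement genes summed to 1820 to 1975 CPM in the pull-down, 2152 to 2613 after collagenase and 1859 to 2155 without digestion, so their sum was not lower in sorted cells although most single genes were, and H3f3b was the one replacement gene called higher. In PBS mice of the LPS experiment the replacement sum was lower in sorted cells, at 1008 to 1029 CPM against 1497 to 1617 in the pull-down, without overlap, and the cluster sum was 479 to 604 against 246 to 296.

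**Figure D1:**
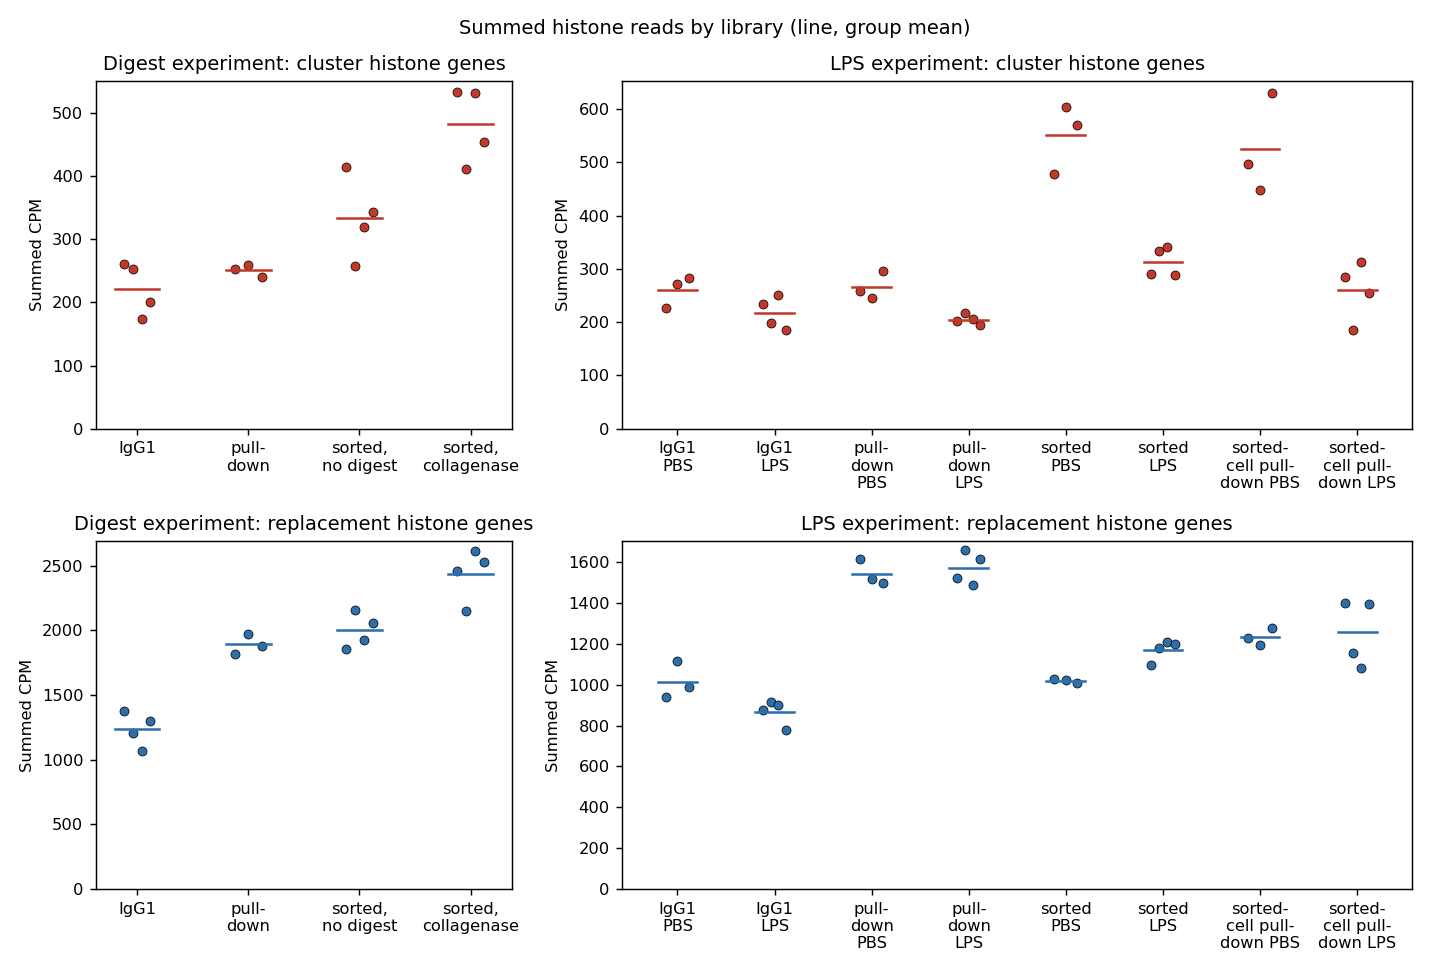
Summed CPM of the cluster genes and of the replacement genes (vertical axes) in each library of the digest and LPS experiments, grouped by preparation and treatment on the horizontal axis; points are libraries and lines are group means. The collagenase libraries hold 411 to 533 CPM of cluster reads against 240 to 260 in the pull-down, and sorted cells of LPS mice hold 289 to 342 against 479 to 604 in PBS mice.

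Among the linker histones, the cluster H1 genes were high and H1fx was low in sorted cells. Hist1h1c, Hist1h1d and Hist1h1e encode the main somatic H1 proteins of dividing cells. Hist1h1e read 0.758, 0 and 0 CPM in the 3 pull-downs, 37.5, 23.6, 24.3 and 19.1 after collagenase, and 7.67, 6.76, 10.8 and 6.75 without digestion. Every sorted library was above every pull-down and every collagenase library was above every undigested one. With 118 reads after collagenase and 1 read in the pull-down, the ratio was 115 (95% interval 20.2 to 4576, counting error only), and without digestion it was 36.1 (6.11 to 1460) from 40 reads and 1. Hist1h1d had no read in any pull-down, 23.6, 15.5, 13.9 and 21.9 CPM after collagenase and 3.41, 2.25, 2.32 and 2.53 without digestion. It was at least 27.3-fold higher after collagenase and at least 3.91-fold higher without digestion than the pull-down, taking 3 reads over the group as its floor. Hist1h1c read 0, 0 and 0.638 CPM in the pull-down, 17.1, 8.78, 6.94 and 11.4 after collagenase and 1.71, 3.00, 4.64 and 2.53 without digestion, from 1, 49 and 15 reads. All 3 were called in both comparisons.

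In PBS mice of the LPS experiment Hist1h1e read 0, 0.657 and 3.06 CPM in the pull-down, 3.38, 4.20 and 3.88 in IgG, 38.5, 67.8 and 51.9 in sorted cells and 17.6, 7.40 and 18.5 in the sorted-cell pull-down. Sorted cells were above all other preparations without overlap. The difference between sorted cells and the pull-down was 5.30 ± 0.47 on the log2 scale (adjusted p = 7.7e-16). Hist1h1e was lower in the sorted-cell pull-down than in the sorted cells, with a log2 fold change of -1.71 ± 0.38 (adjusted p = 0.00038). Hist1h1c and Hist1h1d were too low for the test there, at 19.3, 4.15 and 14.0 CPM and 8.25, 5.54 and 19.6 CPM in the sorted cells of PBS mice and 0 to 1.31 and 0 CPM in their pull-downs.

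H1fx, a replacement linker histone, went the other way. It read 37.9, 23.0 and 25.5 CPM in the pull-down of the digest experiment, 106, 85.2, 54.5 and 64.9 in IgG, 2.14, 1.35, 0.868 and 0 after collagenase and 0.853, 0, 2.32 and 0.844 without digestion. It was highest in the IgG libraries and near 0 in every sorted library. Its log2 fold change from the pull-down was -4.60 ± 0.47 after collagenase (adjusted p = 6.3e-11), and the corresponding values were -4.70 ± 0.47 without digestion (adjusted p = 2.8e-11) and -4.64 ± 0.45 in PBS mice (adjusted p = 1.5e-13). H1f0, the linker histone that accumulates in resting cells, read 94.0, 101 and 84.2 CPM in the pull-down, 143, 89.8, 73.8 and 74.4 after collagenase and 58.8, 43.6, 74.2 and 66.7 without digestion. The undigested libraries were all below the pull-down (-0.61 ± 0.19, adjusted p = 0.0041, and 0.054 with total-count scaling), whereas the collagenase libraries overlapped it (0.02 ± 0.18, adjusted p = 0.93). As a share of the reads of all linker histones, Hist1h1c, Hist1h1d and Hist1h1e made up 0 to 0.578% in the pull-down, 34.3 to 41.0% after collagenase, 14.9 to 21.6% without digestion and 55.0 to 58.3% in sorted cells of PBS mice.

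**Figure D2:**
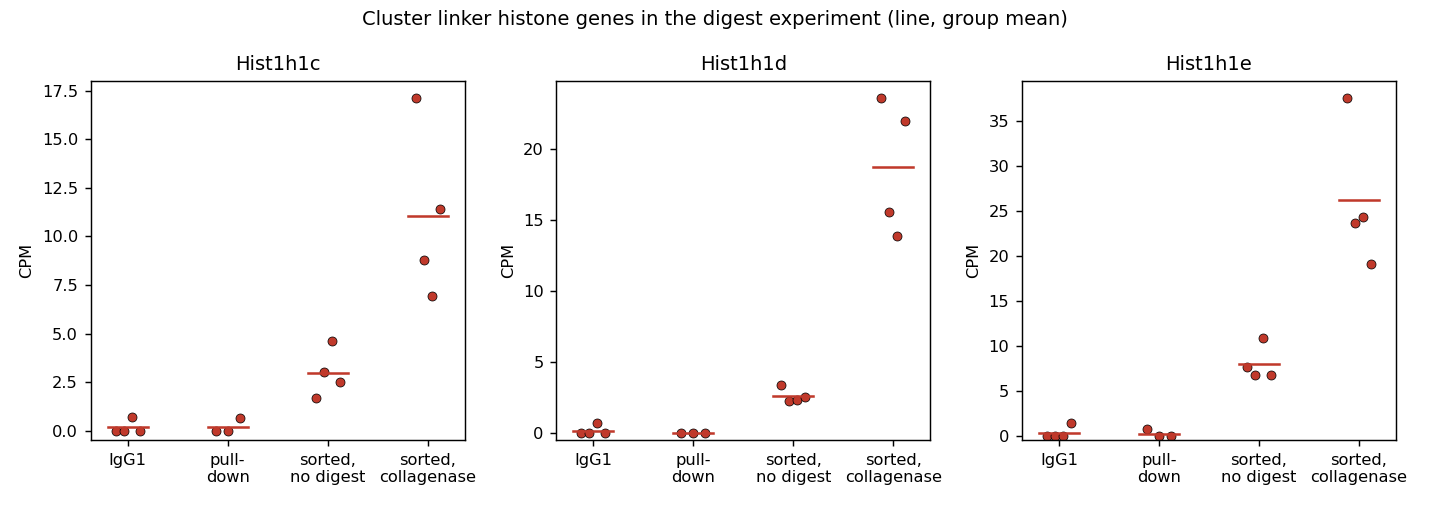
CPM of Hist1h1c, Hist1h1d and Hist1h1e (vertical axis) in each library of the digest experiment, by preparation; points are libraries. All 3 genes lie near 0 in pull-down and IgG, and the collagenase libraries of Hist1h1d (13.9 to 23.6 CPM) and Hist1h1e (19.1 to 37.5 CPM) lie above every undigested library.

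The promoters of Hist1h1d and Hist1h1e are shown because these were the members called between the digests. Each runs 5′ to 3′ from 250 bases before to 50 bases after the start of the gene in RefSeq's annotation of GRCm38.p6, where the genes are named H1f3 and H1f4; the build differs from the mm9 of the count tables. Capitals mark the letters AAACACA (found near linker histone genes), the CCAAT box and the TATAAA box on either strand. Hist1h1d lies at chr13:23554782-23555081 on the plus strand and Hist1h1e at chr13:23622509-23622808 on the minus strand.
Hist1h1d: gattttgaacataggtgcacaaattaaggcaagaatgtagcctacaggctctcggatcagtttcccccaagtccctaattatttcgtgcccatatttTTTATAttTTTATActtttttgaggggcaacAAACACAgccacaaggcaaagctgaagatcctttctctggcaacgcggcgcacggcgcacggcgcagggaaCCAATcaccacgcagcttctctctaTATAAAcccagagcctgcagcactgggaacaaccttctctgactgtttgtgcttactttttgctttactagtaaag
Hist1h1e: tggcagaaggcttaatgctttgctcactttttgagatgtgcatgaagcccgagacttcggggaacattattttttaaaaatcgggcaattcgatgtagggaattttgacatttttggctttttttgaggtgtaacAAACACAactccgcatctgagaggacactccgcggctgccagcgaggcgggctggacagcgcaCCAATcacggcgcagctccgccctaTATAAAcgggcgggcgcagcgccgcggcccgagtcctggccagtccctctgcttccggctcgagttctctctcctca
Both windows hold AAACACA, at -122 and -115 from the start, then CCAAT at -51 and -52 and TATAAA at -26 and -27. Hist1h1d also holds TATAAA on the other strand at -145 and -153. The window of Hist1h1c holds AAACACA too, at -112. AAACACA occurs in 3 of the 14 cluster promoters matched in the RefSeq table, the 3 linker genes, and in 7.18% of 32851 mouse promoters. CCAAT occurs in 13 of 14 cluster and 6 of 9 replacement promoters and in 37.4% of all, and TATAAA in 7 of 14, 1 of 9 and 13.6%. The octamer ATTTGCAT occurs in 2 of 14 cluster and 1 of 9 replacement promoters and in 1.74% of all. The cyclic AMP element TGACGTCA occurs in 1 of 14 and 0 of 9 and in 1.79% of all, and the AP-1 letters TGANTCA in 0 of 14 and 0 of 9 and in 7.81% of all. Both strands were searched, and 23 of the 28 genes were matched to a single gene with a promoter in the table. Hist1h2ap was left out because its symbol matched 2 genes there, and H2afx, Hist1h2al, Hist1h2bc and Hist2h2be had no promoter.

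Among the H2A genes, H2afj, H2afv and H2afx were lower in sorted cells in all 3 comparisons with the pull-down and Hist1h2ao was higher, while H2afz was not called in any of them and H2afy and Hist2h2aa1 were called in some. H2afj, an H2A variant known from senescent cells, read 456, 491 and 491 CPM in the pull-down of the digest experiment, 139, 119, 136 and 116 after collagenase and 144, 116, 129.9 and 138 without digestion. H2afv, which encodes one of the H2A.Z proteins, read 240.4, 253 and 265 CPM in the pull-down, 61.1, 60.8, 72.9 and 67.7 after collagenase and 67.4, 70.6, 62.6 and 68.4 without digestion. In both genes the sorted libraries lay well below the pull-down and the digested and undigested libraries covered about the same range. H2afj differed from the pull-down by -1.91 ± 0.14 and -1.86 ± 0.14 on the log2 scale and H2afv by -1.95 ± 0.14 and -1.91 ± 0.13, after collagenase and without digestion. The highest adjusted p of these 4 edgeR tests was 2.9e-15. H2afx, the variant phosphorylated at DNA breaks, read 88.7, 83.4 and 93.8 CPM in the pull-down, 21.4, 16.2, 19.1 and 32.4 after collagenase and 32.4, 27.8, 30.9 and 38.8 without digestion, with log2 fold changes from the pull-down of -2.01 ± 0.20 (adjusted p = 2.1e-11) and -1.45 ± 0.19 (adjusted p = 1.0e-08).

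H2afz, the other H2A.Z gene, read 43.2, 70.3 and 49.8 CPM in the pull-down, 69.7, 56.1, 69.4 and 62.9 after collagenase and 66.5, 68.3, 62.6 and 43.0 without digestion. These ranges overlap and the gene was not called after collagenase (0.23 ± 0.19, adjusted p = 0.27) or without digestion (0.14 ± 0.18, adjusted p = 0.51). The make-up of H2A.Z reads therefore differed between preparations: H2afz gave 15.2 to 21.7% of the reads of H2afz and H2afv in the pull-down, 48.0 to 53.3% after collagenase and 38.6 to 50% without digestion. The macroH2A gene H2afy read 183, 211 and 172 CPM in the pull-down, 141, 141, 141 and 158 after collagenase and 136, 135, 102 and 137 without digestion, and all sorted libraries were below all pull-downs. Its log2 fold changes were -0.38 ± 0.15 (adjusted p = 0.020) and -0.57 ± 0.15 (adjusted p = 0.00070), and the first was lost with total-count scaling (adjusted p = 0.18) and without pull-down replicate 2. H2afy2, the second macroH2A gene, had 20 reads in the pull-down and 1 after collagenase, a 20.5-fold lower level with an interval of 3.29 to 851.

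H2afj, H2afv and H2afx were also lower in sorted cells of the PBS mice. H2afj read 502, 463 and 464 CPM in the pull-down and 141, 127 and 142 in sorted cells, H2afv 232, 221 and 236 against 45.8, 45.7 and 54.7, and H2afx 49.7, 49.3 and 38.2 against 8.25, 9.69 and 8.41. None of these ranges overlapped. The log2 fold changes were -1.80 ± 0.18, -2.24 ± 0.21 and -2.38 ± 0.31, with adjusted p-values of 9.8e-14, 5.0e-15 and 7.0e-10. H2afy (186, 154 and 198 CPM against 175, 155 and 139) and H2afz (37.3, 28.9 and 22.9 against 50.4, 27.7 and 28.0) overlapped and were not called. H1f0 read 112, 125 and 100.1 CPM in the pull-down and 45.8, 55.4 and 67.3 in sorted cells (-1.02 ± 0.20, adjusted p = 8.9e-06). H2afy2 had 20 reads in the pull-down and none in sorted cells, at least 4.01-fold lower.

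Of the cluster H2A genes, Hist1h2ao was higher in sorted cells in both experiments. It read 6.07, 8.71 and 7.02 CPM in the pull-down of the digest experiment, 43.9, 35.1, 64.2 and 41.0 after collagenase and 63.9, 18.0, 37.9 and 43.9 without digestion (2.63 ± 0.38, adjusted p = 1.3e-06, and 2.45 ± 0.38, adjusted p = 4.0e-06). In PBS mice it read 13.1, 11.8 and 17.6 CPM in the pull-down and 39.4, 58.1 and 49.1 in sorted cells (1.77 ± 0.31, adjusted p = 9.4e-07). No pull-down library reached the lowest sorted one in any of these comparisons. Hist1h2ap is a near-identical copy of Hist1h2ao, with equal counts in 15 of 28, 10 of 15 and 21 of 24 libraries of the LPS, digest and driver experiments, so its calls are not separate evidence. The same holds for Hist2h2aa2 and Hist2h2aa1, with equal counts in 18, 11 and 22 of these libraries.

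Hist2h2aa1 read 7.58, 4.98 and 4.47 CPM in the pull-down, 17.1, 7.43, 12.1 and 12.4 after collagenase and 11.9, 6.01, 6.96 and 8.44 without digestion. It was called after collagenase (1.08 ± 0.38, adjusted p = 0.012), a call lost without collagenase replicate 1 or without pull-down replicate 3 (highest adjusted p 0.059), and not without digestion (0.56 ± 0.40, adjusted p = 0.21). In PBS mice Hist2h2aa1 read 31.4, 30.2 and 35.2 CPM in the pull-down and 44.9, 42.9 and 51.9 in sorted cells (0.53 ± 0.22, adjusted p = 0.032), and this call was lost under 6 alternatives, among them DESeq2 and leaving out either of pull-down replicates 1 and 2 or sorted replicates 1 and 3. Hist3h2a read 3.03, 1.24 and 1.91 CPM in the pull-down, 8.57, 9.46, 4.34 and 7.63 after collagenase and 7.67, 3.76, 8.51 and 7.60 without digestion. Its sorted libraries were all above its pull-downs (1.86 ± 0.52, adjusted p = 0.0015, and 1.72 ± 0.52, adjusted p = 0.0033).

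The H2B genes did not move together. Hist1h2bc, the cluster gene with the most reads here, read 182, 194 and 174 CPM in the pull-down, 208, 159, 236 and 194 after collagenase and 163, 125, 132 and 147 without digestion. Collagenase libraries overlapped the pull-down (0.12 ± 0.15, adjusted p = 0.49) and undigested libraries were below it (-0.37 ± 0.15, adjusted p = 0.025), a call that total-count scaling and leaving out pull-down replicate 2 or undigested replicate 2 or 3 ended (adjusted p up to 0.31). In PBS mice it read 109.6, 105 and 143 CPM in the pull-down and 112, 114 and 109 in sorted cells (-0.09 ± 0.18, adjusted p = 0.66). Hist1h2be read 0.758, 1.24 and 0 CPM in the pull-down, 9.65, 8.78, 12.1 and 7.63 after collagenase and 3.41, 5.26, 3.87 and 8.44 without digestion, all sorted libraries being above the pull-down. From 44 and 3 reads its ratio after collagenase was 14.3 (4.58 to 71.9), and from 26 and 3 reads it was 7.82 without digestion.

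Hist2h2be read 1.52, 2.49 and 3.19 CPM in the pull-down, 5.36, 9.46, 3.47 and 8.58 after collagenase and 9.38, 15.8, 8.51 and 4.22 without digestion (1.46 ± 0.55, adjusted p = 0.016, and 1.93 ± 0.51, adjusted p = 0.00090). The groups did not overlap, but the first call was lost without pull-down replicate 1 or collagenase replicate 2 (highest adjusted p 0.082). Hist3h2ba was the cluster gene that ran against the rest, at 20.5, 20.5 and 21.7 CPM in the pull-down, 38.2, 37.5, 32.5 and 28.0 in IgG, 3.22, 2.70, 2.60 and 5.72 after collagenase and 4.26, 1.50, 6.96 and 4.22 without digestion. Like H1fx it was highest in IgG and lowest in sorted cells, and its log2 fold changes from the pull-down were -2.55 ± 0.35 (adjusted p = 3.5e-08) and -2.28 ± 0.33 (adjusted p = 1.0e-07). In PBS mice it had 57 reads in the pull-down and 3 in sorted cells, 11.4-fold lower (3.72 to 57.1).

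The H3.3 genes moved in opposite directions. H3f3a and H3f3b encode the same H3.3 protein, the H3 laid down outside S phase. H3f3b read 416, 471 and 451 CPM in the pull-down of the digest experiment, 180.1, 207, 175 and 245 in IgG, 1720.1, 1559.6, 2016 and 1843 after collagenase and 1218, 1543, 1355 and 1442 without digestion. H3f3a read 256, 267 and 248 CPM in the pull-down, 88.9, 90.6, 68.6 and 100.3 in IgG, 159, 108, 83.3 and 172 after collagenase and 135, 149, 104 and 127 without digestion. All sorted libraries were above all pull-downs for H3f3b and below them for H3f3a. H3f3b was 4.00-fold higher after collagenase (log2 2.00 ± 0.14, adjusted p = 4.7e-16) and 3.12-fold higher without digestion (1.64 ± 0.14, adjusted p = 1.1e-13). H3f3a was lower by -0.99 ± 0.17 (adjusted p = 5.1e-06) and -1.0 ± 0.17 (adjusted p = 4.2e-06) on the log2 scale. H3f3b made up 61.9 to 64.5% of the reads of both genes in the pull-down, 67.0 to 71.9% in IgG, 91.5 to 96.0% after collagenase and 90.0 to 92.8% without digestion.

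In PBS mice H3f3b read 275, 274 and 274 CPM in the pull-down, 502, 519 and 469.5 in sorted cells and 545, 551 and 529 in the sorted-cell pull-down, and H3f3a read 159, 127 and 104, then 55.9, 84.4 and 96.7, then 104, 126 and 82.6. For H3f3b every sorted-cell pull-down lay above every sorted library, and both lay above the pull-down from whole brain. Sorted cells differed from the pull-down by 0.86 ± 0.17 for H3f3b (adjusted p = 1.0e-05) and by -0.74 ± 0.21 for H3f3a (adjusted p = 0.0017). Without a filter on low counts, H3f3b differed by 0.36 and was not called (adjusted p = 0.084).

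**Figure D3:**
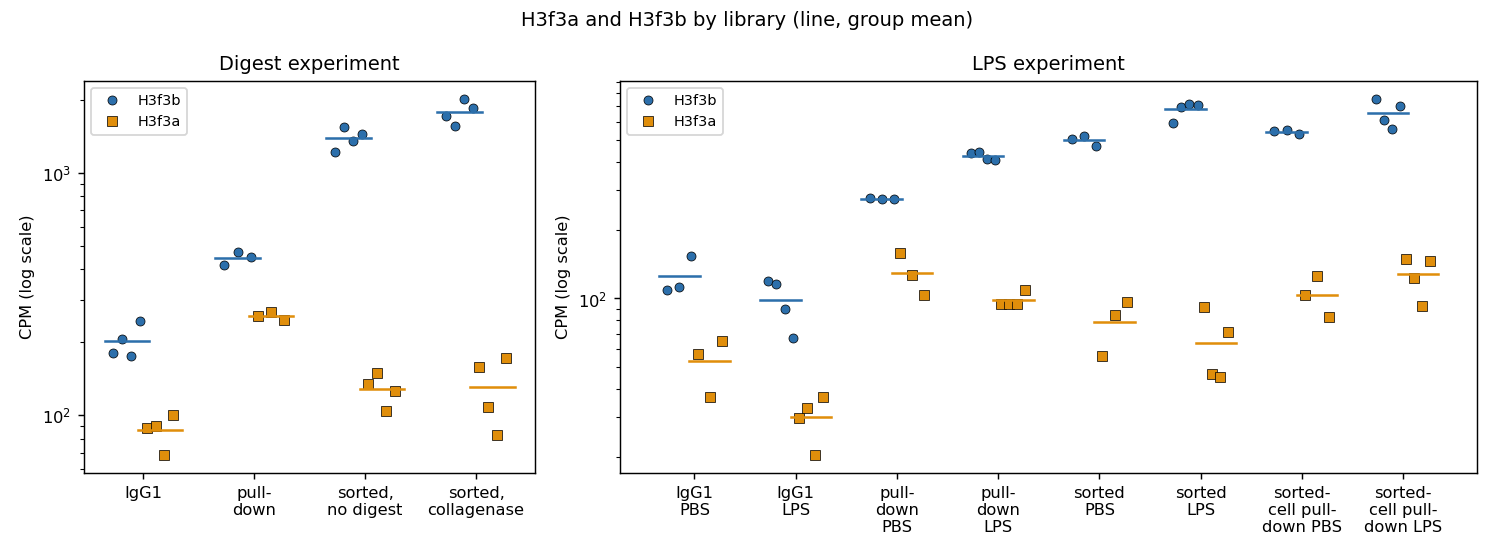
CPM of H3f3a (squares) and H3f3b (circles) on a log axis in each library of the digest and LPS experiments, by group. H3f3b lies between 1218 and 2016 CPM in the sorted libraries of the digest experiment against 416 to 471 in the pull-down, while H3f3a is lower in the sorted libraries than in the pull-down.

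The promoters of both H3.3 genes are shown because one protein is made from them while their reads moved apart. They come from the same table and build, run 5′ to 3′, and carry the same letters in capitals, with ATTTGCAT added. H3f3a lies at chr1:180813556-180813855 and H3f3b at chr11:116024455-116024754, both on the minus strand.
H3f3a: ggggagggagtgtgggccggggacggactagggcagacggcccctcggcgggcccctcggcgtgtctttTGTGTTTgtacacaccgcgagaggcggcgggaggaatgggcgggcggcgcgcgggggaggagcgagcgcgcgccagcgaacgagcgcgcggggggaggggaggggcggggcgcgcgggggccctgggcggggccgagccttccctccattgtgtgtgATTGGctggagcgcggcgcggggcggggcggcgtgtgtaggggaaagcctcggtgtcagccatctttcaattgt
H3f3b: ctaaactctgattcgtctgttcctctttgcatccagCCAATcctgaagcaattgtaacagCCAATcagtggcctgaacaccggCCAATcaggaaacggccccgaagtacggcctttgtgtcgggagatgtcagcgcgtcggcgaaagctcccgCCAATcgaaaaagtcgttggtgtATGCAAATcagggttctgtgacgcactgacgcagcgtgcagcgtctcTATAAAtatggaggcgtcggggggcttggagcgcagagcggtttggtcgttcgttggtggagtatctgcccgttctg
The H3f3b window holds CCAAT at -214, -190, -167 and -97, TATAAA at -27 and, on the other strand, ATTTGCAT at -74. The H3f3a window holds CCAAT once, at -24 on the other strand, AAACACA at -181 on the other strand and no TATAAA. These are descriptions of letters, not of binding.

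Of the H4 genes, which all encode the same protein, Hist1h4d was higher in sorted cells. It read 0, 0.622 and 0.638 CPM in the pull-down, 18.2, 11.5, 9.55 and 6.67 after collagenase and 5.97, 3.76, 9.28 and 4.22 without digestion, with no overlap with the pull-down. From 52 reads after collagenase and 2 in the pull-down the ratio was 25.3 (6.66 to 215). In PBS mice Hist1h4d read 1.46, 1.31 and 3.06 CPM in the pull-down and 27.5, 45.7 and 37.8 in sorted cells (4.16 ± 0.48, adjusted p = 1.7e-11). Hist1h4h was called in PBS mice (3.65, 1.97 and 5.35 CPM against 11.9, 9.69 and 14.0; 1.69 ± 0.49, adjusted p = 0.0018) and not in the digest experiment (0.63 ± 0.42 and 0.01 ± 0.45). Kept but too low to be tested were Hist1h2ad and Hist1h4c in the digest experiment, Hist1h1c, Hist1h1d, Hist1h2be, Hist1h4c and Hist2h2ac in the LPS experiment and Hist1h1e in the driver experiment.

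**Figure D4:**
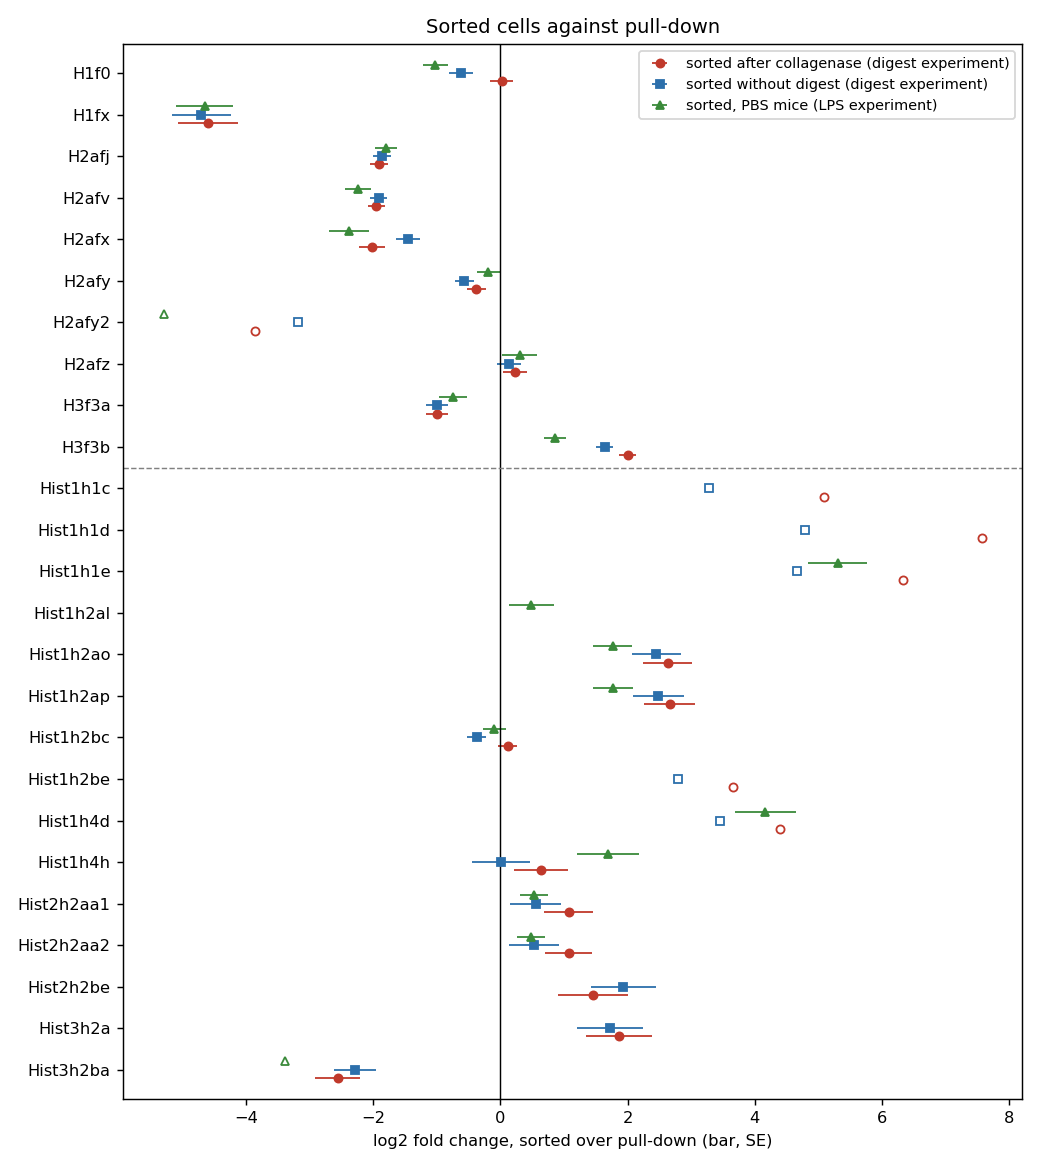
Log2 fold change of sorted cells over pull-down (horizontal axis) with its standard error for each histone gene, in PBS mice, after collagenase and without digestion; open symbols without bars have 3 reads or fewer in one group, and the dashed line separates replacement genes (above) from cluster genes (below). H3f3b is the replacement gene to the right of 0 in all 3 comparisons that was called in each, and Hist3h2ba is the cluster gene far to the left in all 3.

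Sorted cells after collagenase differed from undigested sorted cells in 2 histone genes, both cluster linker histones. The digest combined Collagenase D, DNase and the time of digestion, and the part of each was not tested. Of 14 cluster genes 2 were higher and none lower, and of 10 replacement genes none was called, in a comparison in which 0.139% of all genes, or 16, were called, 0.121% higher and 0.0173% lower. Hist1h1d was 6.84-fold higher after collagenase (log2 2.77 ± 0.39, adjusted p = 4.4e-05) and Hist1h1e was 3.19-fold higher (1.67 ± 0.31, adjusted p = 0.0028), with the library values given above. Hist1h1c did not pass (1.81 ± 0.44, adjusted p = 0.12), although its 4 collagenase libraries also lay above its 4 undigested ones. At an unadjusted p under 0.05 there were 6 cluster genes and 2 replacement genes higher and 1 replacement gene lower, and DESeq2 called 2 higher and none lower.

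No other member was called. H3f3b was 0.36 ± 0.12 higher (adjusted p = 0.58), H1f0 0.63 ± 0.18 (adjusted p = 0.35) and Hist1h2bc 0.49 ± 0.14 (adjusted p = 0.35) on the log2 scale, and H2afj, H2afv, H2afz and H3f3a lay within 0.1 of no difference. Hist1h1d, Hist1h1c and Hist1h1e had 84, 49 and 118 reads after collagenase and 13, 15 and 40 without digestion. All 3 passed the filter on low counts only with the collagenase libraries. The count of 2 called genes therefore lends no support beyond the genes' own values, and no median over the genes that passed is given. Collagenase replicate 1 had the highest value of Hist1h1c, Hist1h1d, Hist1h1e and H1f0 in its group, and it held 236 CPM of 10 neutrophil and monocyte markers, where its 3 companions held 5.72 to 10.4. Undigested replicate 4 held 382 CPM of these markers and had 2.53, 2.53 and 6.75 CPM of the 3 linker genes, within the range of its group. Without collagenase replicate 1, Hist1h1d was still called (2.65, adjusted p = 0.00081) and Hist1h1e was not (1.47, adjusted p = 0.058).

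Pull-down from sorted cells, set against the sorted cells of PBS mice, asks how ribosome-bound RNA differs from the total RNA of the same kind of cell. Of 10 cluster genes 3 were higher and 3 lower, and of 10 replacement genes 2 were higher and none lower, against 31.9% of all genes called, 16.6% higher and 15.2% lower. H2afv read 111, 115 and 87.7 CPM in the sorted-cell pull-down and 45.8, 45.7 and 54.7 in sorted cells (1.09 ± 0.24, adjusted p = 0.00031), and H2afx read 27.4, 11.1 and 32.0 against 8.25, 9.69 and 8.41 (1.55 ± 0.40, adjusted p = 0.0020). Hist1h2ao read 91.9, 77.7 and 126 CPM against 39.4, 58.1 and 49.1 (1.07 ± 0.28, adjusted p = 0.0019) and Hist1h2bc read 147, 144 and 180.4 against 112, 114 and 109 (0.51 ± 0.20, adjusted p = 0.042). The groups did not overlap in any of these 4 genes, but the call of Hist1h2bc was lost without sorted-cell pull-down replicate 3 or any one of the sorted libraries (adjusted p up to 0.33 with total-count scaling). Both members of the H4 family that were tested were lower, Hist1h4d at 5.86, 7.40 and 15.2 CPM against 27.5, 45.7 and 37.8 (-1.83 ± 0.47, adjusted p = 0.0017) and Hist1h4h at 1.95, 3.70 and 5.06 against 11.9, 9.69 and 14.0 (-1.68 ± 0.66, adjusted p = 0.043). The call of Hist1h4h was lost with DESeq2, with its size factors, without a filter, without any one of the sorted-cell pull-downs and without sorted replicate 1 or 3 (adjusted p up to 0.21). With total-count scaling the split over both classes was 4 higher and 5 lower in place of 5 and 3. The H2afj, H2afy, H2afz, H3f3a, H3f3b and H1f0 genes were not called, and H2afj read 154, 133 and 196 CPM against 141, 127 and 142.

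After LPS the cluster genes Hist1h2bc and Hist1h2ao, the latter with its copy Hist1h2ap, were lower in each of the 3 microglial preparations. H3f3b rose in the pull-down and sorted cells, and H2afx rose in sorted cells and the sorted-cell pull-down. In sorted cells 6 of 10 cluster genes were lower and none higher, and of 10 replacement genes 2 were higher and 2 lower, against 34.5% of all genes called, 17% higher and 17.6% lower. In the sorted-cell pull-down 5 cluster genes were lower and none higher, with 1 replacement gene higher and 2 lower, against 25.6% of all genes, 12.7% higher and 12.9% lower. In the pull-down 4 cluster genes were lower and none higher, again with 1 replacement gene higher and 2 lower, against 26.5% of all genes, 15.5% higher and 11% lower. The median log2 fold change of the cluster genes was -0.94, -1.06 and -0.06 in these preparations, that of the replacement genes -0.13, -0.16 and 0.03, and that of all genes -0.01, -0.07 and -0.03. Pairs of near-identical copies add 2, 2 and 1 calls to the cluster counts. In IgG, by edgeR, no member was called, against 1.15% of all genes (1% higher, 0.149% lower). At an unadjusted p under 0.05, 1 cluster and 3 replacement genes were lower and none higher, and DESeq2 called none. The IgG medians were -0.30 for the cluster genes and -0.18 for the replacement genes, beside -0.02 over all genes. Both lay further below 0 than the medians of the pull-down.

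Summed cluster reads fell from 479 to 604 CPM in sorted cells of PBS mice to 289 to 342 after LPS, and from 448 to 631 to 185 to 314 in the sorted-cell pull-down, and the ranges did not overlap. As a share of all histone reads the cluster genes went from 31.8 to 37.1% to 19.4 to 22.1% in sorted cells. A list of 9 lymphocyte markers moved the same way, from 64.2 to 77.1 CPM in sorted cells of PBS mice to 6.31 to 13.3 after LPS, with 7 of the 9 at 0 in both groups; its part in the result was not tested.

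Hist1h2bc, an H2B gene, fell in all 3 preparations. It read 112, 114 and 109 CPM in sorted cells of PBS mice and 23.5, 36.7, 46.3 and 51.1 after LPS, 147, 144 and 180.4 against 68.7, 61.7, 61.5 and 55.5 in the sorted-cell pull-down, and 109.6, 105 and 143 against 89.3, 97.5, 78.1 and 78.9 in the pull-down. No group overlapped its PBS counterpart. The log2 fold changes were -1.45 ± 0.20 in sorted cells (adjusted p = 2.3e-08), -1.36 ± 0.22 in the sorted-cell pull-down (adjusted p = 1.5e-06) and -0.46 ± 0.17 in the pull-down (adjusted p = 0.031). The last call was lost without a filter on low counts and without LPS replicate 3 or 4 or PBS replicate 3 of the pull-down, the largest adjusted p being 0.26 at -0.31. In IgG it read 105, 115 and 129.7 CPM and 109, 101, 120.0 and 76.9 after LPS (-0.21 ± 0.17, adjusted p = 0.70).

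The LPS effect on Hist1h2bc was larger in sorted cells than in the pull-down, with a difference of -0.98 ± 0.26 on the log2 scale (adjusted p = 0.023). It was the single member called in that test of the difference, which called 3.21% of all genes, 0.795% higher and 2.41% lower, and leaving out any of 6 of the 14 libraries ended the call, at adjusted p-values between 0.054 and 0.069. Those were LPS pull-down replicate 2, PBS pull-down replicates 1 and 2 and all 3 PBS sorted libraries.

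Among the other cluster genes, Hist1h2ao read 39.4, 58.1 and 49.1 CPM in sorted cells of PBS mice and 13.7, 21.7, 33.6 and 15.4 after LPS (-1.13 ± 0.30, adjusted p = 0.0017). In the sorted-cell pull-down Hist1h2ao read 91.9, 77.7 and 126 against 55.7, 15.4, 55.4 and 50.1 (-1.11 ± 0.29, adjusted p = 0.0026), and in the pull-down 13.1, 11.8 and 17.6 against 4.94, 6.21, 6.79 and 9.72 (-1.13 ± 0.35, adjusted p = 0.012). The groups did not overlap in any preparation; the pull-down call was lost without LPS replicate 1 (-0.94, adjusted p = 0.071) or PBS replicate 3 (-0.95, adjusted p = 0.089). Hist2h2aa1 read 44.9, 42.9 and 51.9 CPM against 27.4, 35.0, 22.1 and 26.1 in sorted cells (-0.77 ± 0.24, adjusted p = 0.0068) and 33.2, 25.9 and 40.5 against 12.99, 10.3, 12.3 and 17.9 in the sorted-cell pull-down (-1.26 ± 0.36, adjusted p = 0.0049). In the pull-down Hist2h2aa1 overlapped, at 31.4, 30.2 and 35.2 against 30.0, 34.2, 32.6 and 28.1 (-0.04 ± 0.20, adjusted p = 0.91). Hist1h4h fell in sorted cells (-1.74 ± 0.53, adjusted p = 0.0070), and Hist3h2ba fell in the pull-down from 11.7, 14.5 and 14.5 to 5.27, 6.83, 6.79 and 8.64 (-1.04 ± 0.38, adjusted p = 0.032), a call that leaving out any of 5 single libraries ended (LPS replicates 1, 2 and 3, PBS replicates 2 and 3).

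The cluster genes with the largest difference between sorted cells and pull-down were not called after LPS. Hist1h1e read 38.5, 67.8 and 51.9 CPM in sorted cells of PBS mice and 41.1, 53.3, 43.1 and 41.6 after LPS (-0.22 ± 0.27, adjusted p = 0.58), and Hist1h4d read 27.5, 45.7 and 37.8 against 39.1, 40.0, 36.8 and 26.1 (-0.05 ± 0.31, adjusted p = 0.94). The values overlapped in both genes. Hist1h2be, at 10.1, 9.69 and 15.4 CPM against 5.86, 6.67, 9.46 and 13.1, and Hist1h1c, at 19.3, 4.15 and 14.0 against 9.77, 5.00, 3.15 and 7.13, were too low to be tested.

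Replacement genes went in both directions after LPS. H3f3b read 275, 274 and 274 CPM in the pull-down of PBS mice and 436, 442, 411 and 408 after LPS, a 1.55-fold rise (log2 0.63 ± 0.16, adjusted p = 0.0014). In sorted cells H3f3b read 502, 519 and 469.5 against 594, 695, 715 and 710.4 (0.45 ± 0.16, adjusted p = 0.020), and in the sorted-cell pull-down 545, 551 and 529 against 755, 607, 554 and 699.5 (0.29 ± 0.17, adjusted p = 0.21). Each LPS library was above each PBS library in all 3 preparations, but the last difference was not called, and the call in sorted cells was lost with total-count scaling, without a filter, and without PBS sorted replicate 1 or 3 (adjusted p 0.052 to 0.077). H3f3a read 159, 127 and 104 CPM against 94.6, 94.4, 94.4 and 109 in the pull-down (-0.41 ± 0.18, adjusted p = 0.088) and 55.9, 84.4 and 96.7 against 91.9, 46.7, 45.2 and 71.3 in sorted cells (-0.31 ± 0.23, adjusted p = 0.30). Its groups overlapped. H3f3b was 63.5 to 72.5% of H3.3 reads in the pull-down of PBS mice and 78.9 to 82.4% after LPS. In the other preparations the ranges of this share overlapped. They were 82.9 to 90.0% and 86.6 to 94.1% in sorted cells and 81.4 to 86.5% and 82.7 to 85.7% in the sorted-cell pull-down. In IgG they were 65.7 to 75.4% and 64.5 to 81.5%.

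H2afx rose in sorted cells from 8.25, 9.69 and 8.41 CPM to 23.5, 13.3, 16.8 and 28.5 (2.35-fold, log2 1.23 ± 0.36, adjusted p = 0.0049) and in the sorted-cell pull-down from 27.4, 11.1 and 32.0 to 81.7, 61.7, 61.5 and 89.5 (3.01-fold, 1.59 ± 0.30, adjusted p = 1.7e-05). In the pull-down H2afx read 49.7, 49.3 and 38.2 against 56.0, 49.7, 42.1 and 58.3 (0.17 ± 0.20, adjusted p = 0.58). The groups were separate in the first 2 preparations and overlapped in the third; the difference between sorted cells and pull-down was 1.06 ± 0.41 and was not called (adjusted p = 0.16).

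H2afv fell in all 3 preparations, from 232, 221 and 236 CPM to 125, 139, 113 and 144 in the pull-down (-0.82 ± 0.16, adjusted p = 4.9e-05), from 45.8, 45.7 and 54.7 to 13.7, 35.0, 17.9 and 10.7 in sorted cells (-1.36 ± 0.27, adjusted p = 3.2e-05) and from 111, 115 and 87.7 to 39.0, 30.9, 43.1 and 28.6 in the sorted-cell pull-down (-1.57 ± 0.27, adjusted p = 4.3e-06). These calls held under every alternative. H2afz was not called in any preparation, at 50.4, 27.7 and 28.0 CPM against 25.4, 46.7, 40.0 and 38.0 in sorted cells (0.05 ± 0.27, adjusted p = 0.93). H2afz accordingly made up 33.9 to 52.4% of H2A.Z reads in sorted cells of PBS mice and 57.1 to 78.0% after LPS.

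H1f0 fell from 112, 125 and 100.1 CPM to 86.3, 85.7, 74.7 and 64.8 in the pull-down (-0.51 ± 0.17, adjusted p = 0.015), from 45.8, 55.4 and 67.3 to 41.1, 25.0, 41.0 and 33.3 in sorted cells (-0.65 ± 0.23, adjusted p = 0.020) and from 68.4, 74.0 and 74.2 to 26.0, 30.9, 49.2 and 41.1 in the sorted-cell pull-down (-1.03 ± 0.27, adjusted p = 0.0028). No groups overlapped. The first call was lost without PBS replicate 2 (-0.43, adjusted p = 0.11) or the filter, and the second without LPS replicate 2 or PBS replicate 2 or 3 (up to adjusted p = 0.16). H2afj, H2afy, H1fx and H2afy2 were not called in any preparation: H2afj read 502, 463 and 464 CPM in the pull-down of PBS mice and 438, 511, 441 and 566 after LPS, and H2afy 186, 154 and 198 against 166, 196, 185 and 187. H1fx read 59.2, 69.6 and 57.3 against 84.7, 99.4, 84.2 and 56.2 (0.40 ± 0.21, adjusted p = 0.16).

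**Figure D5:**
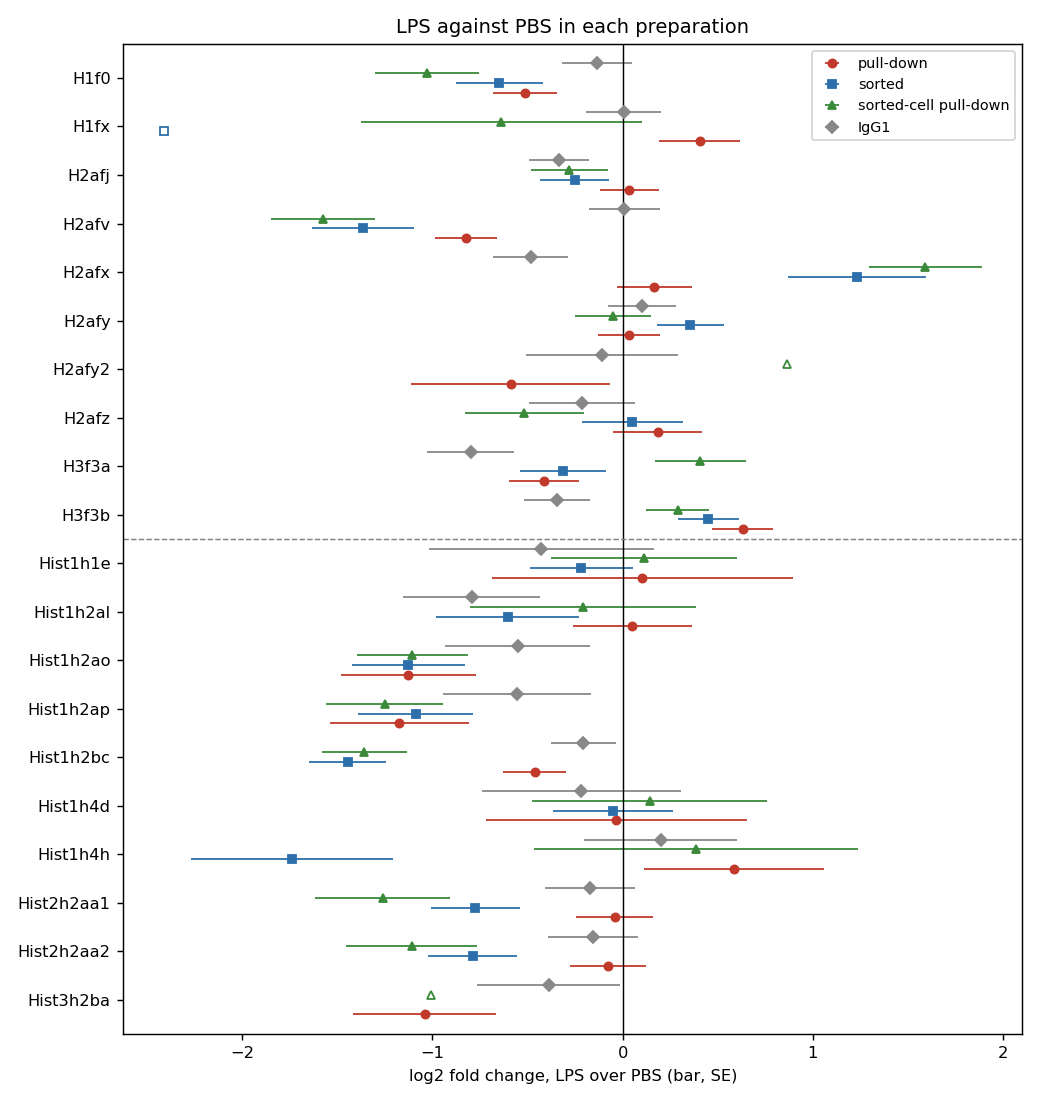
Log2 fold change of LPS over PBS (horizontal axis) with its standard error for each histone gene in pull-down, sorted cells, sorted-cell pull-down and IgG; open symbols have 3 reads or fewer in one group, and genes with 3 or fewer in both are left out. Hist1h2bc, Hist1h2ao and H2afv lie left of 0 in the 3 microglial preparations, and H3f3b lies to the right.

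The pull-down was set against IgG, which shows the RNA that binds without the tag, as the background of the method. In the digest experiment 6 of 10 replacement genes were higher in the pull-down and 2 lower, and 1 of 14 cluster genes was higher and 3 were lower, against 74.5% of all genes called, 26.7% higher and 47.8% lower. In PBS mice 6 replacement genes were higher and 3 lower, and 1 of 10 cluster genes was higher and 2 were lower, against 65% of all genes, 33% higher and 32% lower. That split of 7 higher and 5 lower over both classes depended on the scaling: it was 3 and 7 with DESeq2's size factors and 4 and 7 with total counts, which move the median of all genes from -0.02 to -0.53 and -0.45. In the digest experiment the split of 7 and 5 became 8 and 2 when the compared groups were fitted alone, where the median of all genes moved from -0.47 to -0.08.

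The H3.3 genes were above the IgG background in both experiments. H3f3a was 1.57 ± 0.18 higher on the log2 scale in the digest experiment (adjusted p = 1.3e-09) and 1.27 ± 0.21 in PBS mice (adjusted p = 4.5e-07), and H3f3b 1.15 ± 0.13 (adjusted p = 7.5e-10) and 1.13 ± 0.18 (adjusted p = 1.0e-07). H2afv was 0.87 ± 0.13 and 1.54 ± 0.19 higher and H2afy 0.88 ± 0.15 and 0.88 ± 0.18. H3f3a, H3f3b and H2afv were called in PBS mice under every alternative, whereas H2afy was not called with DESeq2 or its size factors. H1fx was lower in the pull-down than in IgG, by -1.45 ± 0.23 (adjusted p = 9.8e-07) and -1.16 ± 0.22 (adjusted p = 8.3e-06), and H2afy2 by -2.15 ± 0.37 and -1.23 ± 0.47. Hist1h2bc, at 182, 194 and 174 CPM in the pull-down and 165, 149, 108 and 111 in IgG, was higher in the digest experiment (0.45 ± 0.15, adjusted p = 0.0077) and not in PBS mice (0.03 ± 0.18, adjusted p = 0.89). The remaining calls were H2afj (0.32 and 0.47), H2afz (0.89, digest experiment), H1f0 (0.63, PBS mice), H2afx (-0.53, PBS mice), Hist3h2ba (-0.73, digest experiment), Hist1h4h (-1.0 and -1.09), Hist1h4d (-1.44 in PBS mice) and Hist2h2aa2 (0.51, PBS mice). Hist1h4d had 2 reads in the pull-down of the digest experiment and 15 in IgG, 6.67-fold lower (1.55 to 60.1). In PBS mice the call of H1f0 was lost with DESeq2's size factors (0.11, adjusted p = 0.59), with total-count scaling (0.21, adjusted p = 0.32) and with DESeq2 (0.11, adjusted p = 0.60). That of H2afj was lost under the same 3 (-0.05, 0.04 and -0.05). The calls of H2afx, Hist1h4d and Hist1h4h were lost without a filter (adjusted p 0.056 to 0.093). The calls of H2afj, H2afx, H2afy2 and Hist1h4h were lost without IgG replicate 1, those of H2afx and H2afy2 without pull-down replicate 3, that of H2afy2 without IgG replicate 2, that of Hist1h4h without IgG replicate 2, those of Hist1h4h and Hist1h4d without pull-down replicate 1 or 2 and that of Hist1h4d without IgG replicate 3, and Hist2h2aa2 was lost or reversed under all 12 alternatives. In the digest experiment H2afj and Hist1h4h were lost without pull-down replicate 2 or 3 or IgG replicate 2, H2afj also without IgG replicate 3 and Hist1h4h also without IgG replicate 1, Hist1h4d without pull-down replicate 1 or IgG replicate 2, and both Hist3h2ba (-0.28, adjusted p = 0.24) and Hist1h4h (-0.57, adjusted p = 0.26) with the groups fitted alone.

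The driver experiment compared the pull-down with the total extract for each Cre driver. With the inducible driver and tamoxifen 5 of 10 replacement genes were higher in the pull-down and 3 lower, and 2 of 9 cluster genes were higher and 2 lower, against 64.2% of all genes called, 28.7% higher and 35.5% lower. With the constitutive driver 6 replacement genes were higher and none lower, and 3 cluster genes were higher and 1 was lower, against 34.9% of all genes, 18.1% higher and 16.8% lower. Microglial markers summed to between 81000.1 and 103832 CPM in the first pull-down and between 3288 and 7935 in the second, and neuronal markers to between 1869.9 and 2639 and between 6520.1 and 8535. The constitutive inputs held 6827 to 7136 CPM of neuronal and 1081 to 1382 CPM of microglial markers; the part of these markers in the histone differences was not tested. With total-count scaling the split of 7 higher and 5 lower became 0 and 5 for the inducible driver, as the median of all genes moved from -0.28 to -0.75, and 9 and 1 became 5 and 2 for the constitutive one, as it moved from -0.02 to -0.28.

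In the inducible driver with tamoxifen, H2afx read 79.6, 92.2 and 69.6 CPM in the pull-down and 158, 149.8 and 249 in the input (-1.22 ± 0.20, adjusted p = 2.6e-06), and H2afz read 109, 143 and 97.8 against 221, 233 and 241 (-1.0 ± 0.21, adjusted p = 0.00013). In the constitutive driver H2afx read 206, 219.7 and 179 in the pull-down and 208, 207 and 244 in the input, and H2afz 175, 222 and 168 against 197, 202 and 351, and neither was called. Inducible pull-downs were below their inputs without overlap in both genes, and constitutive ones overlapped theirs. H2afj read 649, 577 and 467 CPM against 356, 321 and 253 (0.87 ± 0.19, adjusted p = 0.00020, and 0.063 with total-count scaling) with the inducible driver and 779.7, 639 and 685 against 285, 295 and 272 (1.30 ± 0.19, adjusted p = 2.6e-06) with the constitutive one. H2afv read 297, 281 and 290.2 against 187, 224 and 164 (0.60 ± 0.19, adjusted p = 0.0055, and 0.54 with total-count scaling) and 383, 230.0 and 287 against 203, 227 and 195 (0.53 ± 0.18, adjusted p = 0.023). The second H2afv call was lost with total-count scaling, with the groups fitted alone and without pull-down replicate 1 or input replicate 1 or 3 (adjusted p up to 0.25). H1f0 read 118, 86.2 and 155 against 64.5, 81.2 and 61.1 (0.82 ± 0.22, adjusted p = 0.0017, and 0.15 with total-count scaling) and 99.1, 118 and 112 against 70.5, 54.0 and 58.6 (0.84 ± 0.22, adjusted p = 0.0026).

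H3f3b read 390.4, 465 and 323 CPM in the inducible pull-down and 196, 265 and 326 in its input (0.58 ± 0.20, adjusted p = 0.013), and 295, 294 and 286 against 249.9, 266 and 385 with the constitutive driver (-0.04 ± 0.20, adjusted p = 0.89). H3f3a read 89.9, 129 and 71.7 against 87.6, 96.1 and 40.6 with the inducible driver (0.38 ± 0.26, adjusted p = 0.20) and 142, 112 and 133 against 93.9, 66.2 and 66.6 with the constitutive one (0.78 ± 0.25, adjusted p = 0.015). Inducible libraries overlapped in both genes, and the H3f3b call was lost with total-count scaling (adjusted p = 0.68), without pull-down replicate 2 and without input replicate 1; the H3f3a call was lost with total-count scaling and without constitutive input replicate 2 or 3 (up to adjusted p = 0.096). H2afy read 171, 172 and 184 CPM against 130.3, 95.4 and 115 with the inducible driver (0.63 ± 0.19, adjusted p = 0.0042, and 0.45 with total-count scaling) and 126, 158 and 114 against 96.9, 106 and 126 with the constitutive one (0.27 ± 0.19, adjusted p = 0.27). H1fx read 60.4, 62.4 and 67.4 against 84.8, 119 and 32.6 (-0.28 ± 0.34, adjusted p = 0.48) and 169.8, 189 and 154 against 67.6, 64.3 and 36.4 (1.60 ± 0.32, adjusted p = 0.00045).

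Cluster genes in the driver experiment were few and low apart from Hist1h2bc, which read 199, 211 and 177 CPM in the inducible pull-down and 162, 231 and 224 in its input (-0.07 ± 0.28, adjusted p = 0.83). In the constitutive pull-down Hist1h2bc read 424, 156 and 162 against 129.7, 147 and 231 (0.56 ± 0.27, adjusted p = 0.11), where replicate 1 stood apart. That library also held 575 CPM of cluster reads in all, where its companions held 251 and 298. Hist3h2ba read 48.0, 47.8 and 69.6 CPM in the constitutive pull-down and 18.5, 15.0 and 19.4 in its input (1.64 ± 0.27, adjusted p = 1.1e-05), and 15.4, 5.95 and 5.44 against 24.5, 17.9 and 15.2 with the inducible driver (-1.08 ± 0.37, adjusted p = 0.011), the second call being lost without pull-down replicate 2 or 3 or input replicate 1 (adjusted p up to 0.098). Hist1h2ao read 24.4, 14.9 and 20.7 against 2.80, 9.69 and 9.82 with the inducible driver (1.39 ± 0.47, adjusted p = 0.011, lost with total-count scaling and without pull-down or input replicate 1) and 4.42, 4.78 and 8.92 against 3.59, 2.35 and 5.69 with the constitutive one (0.61 ± 0.58, adjusted p = 0.43). Hist2h2be had 3 reads in the inducible pull-down and 42 in its input, 6.63-fold lower (2.12 to 33.4), and was lower in the constitutive pull-down too (-1.89 ± 0.53, adjusted p = 0.0055). Hist2h2aa1 was higher in the constitutive pull-down, at 17.7, 6.37 and 8.03 against 5.38, 5.16 and 2.85 (1.28 ± 0.45, adjusted p = 0.026, lost with total-count scaling, with DESeq2 and without pull-down replicate 1 or input replicate 2 or 3, adjusted p up to 0.34), and not in the inducible one, at 7.71, 13.4 and 9.78 against 8.41, 8.94 and 5.80. H2afy2 was lower in the inducible pull-down (-0.88 ± 0.36, adjusted p = 0.030, lost with DESeq2, with its size factors, without a filter and without pull-down replicate 1 or 2 or input replicate 2 or 3, adjusted p up to 0.12) and higher in the constitutive one (0.94 ± 0.27, adjusted p = 0.0073, and 0.067 without input replicate 3).

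Set against each other, the constitutive and inducible pull-downs differed in 7 of 19 histone genes, against 55.7% of all genes, 30.2% higher and 25.6% lower. The inducible mice had received tamoxifen and the constitutive mice had not, so driver and tamoxifen cannot be told apart here. H2afx (1.33 ± 0.20, adjusted p = 7.0e-07), H2afy2 (1.66 ± 0.34, adjusted p = 8.7e-05), H1fx (1.43 ± 0.34, adjusted p = 0.00092), H2afz (0.70 ± 0.22, adjusted p = 0.0061) and Hist3h2ba (2.61 ± 0.34, adjusted p = 2.9e-08) were higher with the constitutive driver, and Hist1h2ao (-1.76 ± 0.51, adjusted p = 0.0036) and its copy were lower. H2afz was not called by DESeq2 (adjusted p = 0.050). The split of 5 and 2 was 5 and 4 with DESeq2's size factors and 7 and 2 with total counts. In the IgG libraries of the inducible driver 1 of 10 replacement genes was higher and 5 were lower than in the input, and 1 of 9 cluster genes was higher, against 35% of all genes, 16.6% higher and 18.4% lower. With the groups fitted alone this split of 2 and 5 was 0 and 6. H2afz was lowest there (-2.26 ± 0.23, adjusted p = 1.8e-09), followed by H2afx (-1.81 ± 0.20, adjusted p = 1.6e-08), H2afv (-1.18 ± 0.19), H3f3a (-0.99 ± 0.28) and H3f3b (-0.72 ± 0.21), and the higher genes were Hist1h4d (2.50) and H1fx (0.83). The call of H3f3a was lost without input replicate 2 (adjusted p = 0.061), that of H3f3b without IgG replicate 1 or input replicate 3 (up to 0.051) and that of H1fx with the groups fitted alone, without IgG replicate 1 or 3 and without input replicate 1 or 3 (up to 0.16). Without tamoxifen the 2 inducible pull-downs held 254 and 257 CPM of H3f3b, 43.1 and 46.2 of H3f3a, 353 and 365 of H2afj and 112 and 113 of Hist1h2bc, and no comparison was made.

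Genes that make, process and deposit histones were listed for context. Of the histone mRNA processing list 12 genes were tested in PBS mice, and 6 were higher and 3 lower in sorted cells than in the pull-down, a share of 75% beside 71.9% of all genes. The genes named next are all from the 6 higher ones, and the 3 lower ones are not named. Slbp, the stem-loop binding protein, differed by 2.86 ± 0.69 (adjusted p = 0.00021). Npat, the activator of cluster histone genes, differed by 2.56 ± 0.37 (adjusted p = 1.4e-08) and Casp8ap2, a partner of Npat, by 2.99 ± 0.45 (adjusted p = 3.2e-08). After collagenase 5 of 11 were higher and 3 lower, or 72.7% beside 72.8% of all genes, with Npat at 1.69 ± 0.39 and Casp8ap2 at 2.70 ± 0.54. Without digestion 4 of 11 were higher and 3 lower, or 63.6% beside 72.8%. Between the digests none of the 11 was called. Of the S phase and proliferation list 2 of 15 were higher and 5 lower after collagenase than in the pull-down, 3 were higher and 5 lower without digestion, and 4 of 12 were higher and 4 lower in PBS mice, shares of 46.7%, 53.3% and 66.7% beside 72.8%, 72.8% and 71.9% of all genes. None of 15 was called between the digests. After collagenase, without digestion and in PBS mice, the median log2 fold change of that list was -0.29, -0.47 and -0.29. Over all genes it was -0.18, -0.15 and -0.15. Pcna, the sliding clamp of DNA replication and one of the few members of that list that were higher, differed by 1.89 ± 0.19, 1.72 ± 0.19 and 1.48 ± 0.26.

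After LPS in sorted cells 4 of 12 histone mRNA processing genes were higher and 3 lower, and 2 of 12 S phase genes were higher and 2 lower, or 58.3% and 33.3% beside 34.5% of all genes. Upf1, which takes part in the decay of histone mRNA, was higher by 0.87 ± 0.20 (adjusted p = 0.00034), and Lsm10, part of the U7 particle that cuts histone pre-mRNA, was lower by -2.27 ± 0.40 (adjusted p = 4.3e-06). Slbp (0.46 ± 0.47) and Npat (-0.52 ± 0.31) were not called. Of 25 histone chaperones and assembly factors 8 were higher and 3 lower, or 44%, with Daxx, a chaperone of H3.3, at 1.72 ± 0.23 (adjusted p = 7.9e-09), Ncl at 1.70 ± 0.18 (adjusted p = 2.3e-12) and Hjurp, the chaperone of the centromeric H3, at -1.12 ± 0.22 (adjusted p = 3.1e-05). In the pull-down 6 were higher and 1 lower, or 28% beside 26.5% of all genes, with Daxx at 1.46 ± 0.18 (adjusted p = 1.4e-09), and Hira, another chaperone of H3.3, was called in neither preparation (-0.01 ± 0.38 and 0.24 ± 0.33).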

How the data were processed

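RNA-seq counts per gene were used as deposited by the authors, in a table for each of 3 experiments with 67 libraries in 21 groups. Per the submitters' processing notes, bcl2fastq, HISAT 0.1.5, HOMER and the mouse build mm9 were used. Strand, annotation, molecular identifiers and the selection of poly(A) RNA are not given in the sources used here. Each experiment was fitted whole with edgeR 4.0.16 (limma 3.58.1, R 4.3.3) after filterByExpr with a minimum count of 10, scaling by the trimmed mean of M values and a robust quasi-likelihood fit on group, with p-values adjusted by Benjamini-Hochberg over all genes tested. The steps were tested on simulated data.

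Genes were called at an adjusted p under 0.05. DESeq2 1.42.0, other scalings, no filter, the compared groups alone, a replicate block, near-identical copies counted once (chosen after seeing the data) and leaving out each library were the alternatives. Intervals of 95% and floors of 3 reads over a group cover counting error only.

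The histone genes and all gene lists were chosen with earlier results of these data known. All kept genes were counted. By rule, library values are given for a set of replacement and cluster genes, mainly where a comparison turns on them, and in each comparison for the 4 called genes of smallest p in each direction with a mean of at least 20 CPM. Same-numbered libraries were not treated as pairs. P-values measure the spread between libraries, described in the design text as separate mice.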

Additional observations from a re-analysis of the deposited data

Results flagged for a closer look

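Of 97 sets of 4 libraries examined, 6 held a library far from the other 3, where chance gives about 1 in 20 if values spread normally. H3f3a read 109 CPM in replicate 4 of the LPS pull-down and 94.4 to 94.6 in the others. H3f3b read 594 CPM in replicate 1 of the LPS sorted cells and 695 to 715 in the others. H2afy read 158 CPM in replicate 4 after collagenase, where the others read 141 and 141, and 102 CPM in replicate 3 without digestion, where the others read 135 to 137. H1fx read 1.05 CPM in replicate 3 of the LPS sorted cells and Hist1h1c read 0.707 CPM in replicate 3 of the IgG libraries of the digest experiment, each against 0 in the others. Each was 1 read, a pattern that the rule always flags, so the rate of 1 in 20 does not cover these sets.

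The response of Hist1h2bc to LPS differed between sorted cells and the pull-down by -0.98 on the log2 scale in edgeR's test of the difference.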

How the results depend on the processing

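Of 152 calls of a histone gene in a comparison, 101 held under every alternative in which the gene was tested. The other 51 were lost under at least 1. With DESeq2, 9 of them lost the call and kept their sign. Hist2h2aa2 and H2afj between pull-down and IgG in PBS mice lost it there too, with reversed signs (adjusted p = 0.97 and 0.75 in DESeq2's Wald test). A called gene that did not pass the filter of an alternative was not counted as lost. For sorted cells without digestion against the pull-down, the number called went from 20 to as low as 14 under an alternative. Signs reversed for Hist2h2aa2 between pull-down and IgG in PBS mice (-0.0112 with DESeq2's size factors, -0.0121 with DESeq2), for H2afj there (-0.0533 and -0.0516) and for Hist2h2aa2 between sorted cells and pull-down in PBS mice (-0.0129 without a filter). The cause was not tested. The number of histone genes called changed from 12 to 5 with total-count scaling for the inducible driver against input, from 1 to 2 with the groups fitted alone for the difference of LPS effects, and from 0 to 1 for LPS in IgG without a filter. In the LPS experiment the library titles carried the same numbers in each preparation. Same-numbered libraries did not deviate together in every pair in any comparison, and the numbers were not taken as pairs. With 3 or 4 pairs per comparison this check cannot show that the preparations came from different animals. Between LPS and PBS the same-numbered libraries were different mice. A replicate block gave 1 call in place of 0 for LPS in IgG and between 1 and 20 calls elsewhere, and ended 3 calls. Leaving out single libraries gave 7 to 10 calls in place of 12 for pull-down against IgG in PBS mice (7 without IgG replicate 1), 4 to 7 for LPS in the pull-down (4 without LPS replicate 1 or PBS replicate 3), 0 to 1 for LPS in IgG (1 without PBS replicate 2), 0 to 2 for the difference of LPS effects, 1 to 2 between the digests (1 without collagenase replicate 1) and 6 to 12 for the constitutive driver against input (6 without input replicate 3). Depth limits the low genes of the sorted-cell pull-downs, with 36 to 374 cluster reads per library, and of the pull-downs without tamoxifen, with 37 to 48.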
